A study of Mus musculus with 8 samples.

Results

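Mt1 and Mt2 are the genes of the 2 metallothioneins that most mouse cells can make, and they were taken here by name. Both were present in each of the 3 deposited gene tables, 2 of the 10690 genes listed in at least 1 of them. The study sequenced RNA of NIH3T3 cells, an established line of mouse fibroblasts, with QuantSeq FWD, which sequences from a random priming site near the 3' end of each polyadenylated transcript towards its poly(A) tail. Each transcript yields about one read whatever its length, so read numbers were not divided by gene length. The nontreated library (NT) was compared with cells given 250 µM sodium arsenite for 1 h (AS), and with cells that had the same exposure followed by 4 h (RC4) or 8 h (RC8) of recovery. All 4 conditions used the same line, for which the labels name no genetic change, and each was 1 library. No test between conditions was therefore possible, and every interval below covers counting error only, not the spread between cultures.

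Metallothioneins are small cytosolic proteins whose many cysteines hold zinc, copper, cadmium and other soft metals, and which also react with arsenite and with oxidants. Their genes are the standard example of metal-induced transcription. The zinc-sensing factor MTF1 binds short metal response elements in their promoters when free zinc rises, and other factors that respond to oxidants and glucocorticoids bind nearby. Mt1 and Mt2 lie next to each other and are usually induced together, while Mt3 and Mt4 are read mainly in brain and stratified epithelia.

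The coordinates of the deposited files fitted mouse build mm9. In the GENCODE annotation of that build both genes lie on the plus strand of chromosome 8, Mt2 at chr8:96696518-96697467 and Mt1 at chr8:96702989-96704225, with 5521 nt between the end of Mt2 and the start of Mt1. Each has 3 coding exons, which make a spliced transcript of 540 nt for Mt1 and of 556 nt for Mt2. The 250 bases before the RefSeq start of each gene (build GRCm38.p6) are shown because both genes changed together. Capitals mark the metal response element core TGCACNC or TGCGCNC on either strand, and in Mt2 also 1 match to the antioxidant element TGACNNNGC.
Mt1, chr8:94178839-94179088: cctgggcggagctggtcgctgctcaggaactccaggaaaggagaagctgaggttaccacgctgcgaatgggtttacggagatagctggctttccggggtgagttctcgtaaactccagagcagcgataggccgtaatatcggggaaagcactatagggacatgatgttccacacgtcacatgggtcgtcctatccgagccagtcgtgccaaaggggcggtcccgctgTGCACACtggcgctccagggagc
Mt2, chr8:94172368-94172617: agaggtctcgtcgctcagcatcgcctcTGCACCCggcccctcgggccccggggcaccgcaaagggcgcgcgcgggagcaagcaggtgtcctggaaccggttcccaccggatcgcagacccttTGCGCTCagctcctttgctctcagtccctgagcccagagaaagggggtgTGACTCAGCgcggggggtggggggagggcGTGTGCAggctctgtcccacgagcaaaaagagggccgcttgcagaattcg
A second cluster of matches lay between the annotated start and the start codon, where both annotated first exons are long. The next 4 stretches of 30 bases (mm9) are shown because they hold 2 such matches or the match nearest the start codon, with the same core in capitals.
Mt1, chr8:96702989-96703018: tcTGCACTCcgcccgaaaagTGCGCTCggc
Mt1, chr8:96703067-96703096: cctgctGGGTGCAaacccttTGCGCCCgga
Mt2, chr8:96696575-96696604: cGTGTGCAggcggcgggggcGCGTGCAtgg
Mt2, chr8:96696609-96696638: ttccacccgggcggagctttTGCGCTCgac
In the 300 bases around the RefSeq start (250 before it and 50 after), the looser core TGCNCNC, which includes both forms, matched 3 times for Mt1 and 6 times for Mt2. It matched at least once in 50.4% of 27025 RefSeq promoters of that length, at least 3 times in 6.95% and at least 6 times in 0.207%. In the 300 bases before the start codon it matched 6 times for Mt1 and 5 times for Mt2, and 0.188% and 0.655% of 21838 such stretches held as many. This second window, which overlaps the first, was chosen after the first had been searched. The antioxidant core TGACNNNGC matched once for Mt2 and 0 times for Mt1 around the RefSeq start, and 0 times for Mt2 and once for Mt1 before the start codon. It was in 12.5% and 11.7% of all stretches of each kind. The TATA box TATAAA had 0 matches around the RefSeq start of either gene. Before the start codon it had 1 match in each gene, 101 bases from that codon in Mt1 and 95 in Mt2. It was in 14.2% and 15.7% of the stretches of each kind. Where transcription of the 2 genes starts was not tested. A match describes the letters and does not show that a factor binds there.

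Each library held between 22441452 and 22996421 reads on the listed genes. Fibroblast genes were present (8 of 8 listed, among them Col1a1 and Vim), and 0 of 9 epithelial, blood and endothelial marker genes were in any table. Hmox1, which encodes heme oxygenase 1 and is a standard arsenite-responsive gene, served as a check of NT against the treated libraries. It does not check which treated library is which. Its level in RPM (reads of the gene per 1000000 reads on all genes of the table) was 27.6 (NT), 57.8 (AS), 888 (RC4) and 101 (RC8). On the RPM scale the median gene of all those listed shifted from NT by a log2 change of -0.04 (AS), -0.30 (RC4) and 0.01 (RC8). These are levels in bulk RNA, where fewer cells with a transcript and less of it per cell cannot be told apart.

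Both metallothionein genes were read more in AS than in NT, most in RC4, and at an intermediate level in RC8. The reads of Mt1 numbered 7647 (NT), 16991 (AS), 65075 (RC4) and 33948 (RC8). On the RPM scale NT was at 339 (95% exact Poisson interval 331 to 346), AS at 757 (746 to 769), RC4 at 2842 (2821 to 2864) and RC8 at 1476 (1461 to 1492). None of these intervals overlap, and the order was NT, AS, RC8, RC4 from lowest to highest. The reads of Mt2 numbered 11521 (NT), 27181 (AS), 128362 (RC4) and 43813 (RC8). Its RPM were 510 (501 to 520) for NT, 1211 (1197 to 1226) for AS, 5607 (5576 to 5637) for RC4 and 1905 (1887 to 1923) for RC8. The order of the libraries was that of Mt1, again without overlap, and Mt2 was above Mt1 in each of the 4 libraries.

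Neither gene was silent in NT. By read number Mt2 ranked 322 and Mt1 ranked 527 of the 10452 genes in the table of NT and AS, counted from the highest. In RC4 the ranks were 7 and 27 of 10081, and in RC8 50 and 72 of 10441. Together the pair took 1 read of every 1178 (NT), 508 (AS), 118 (RC4) or 296 (RC8). As a share of all reads on genes that was 0.0849% in NT and 0.845% in RC4.

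**Figure D1:**
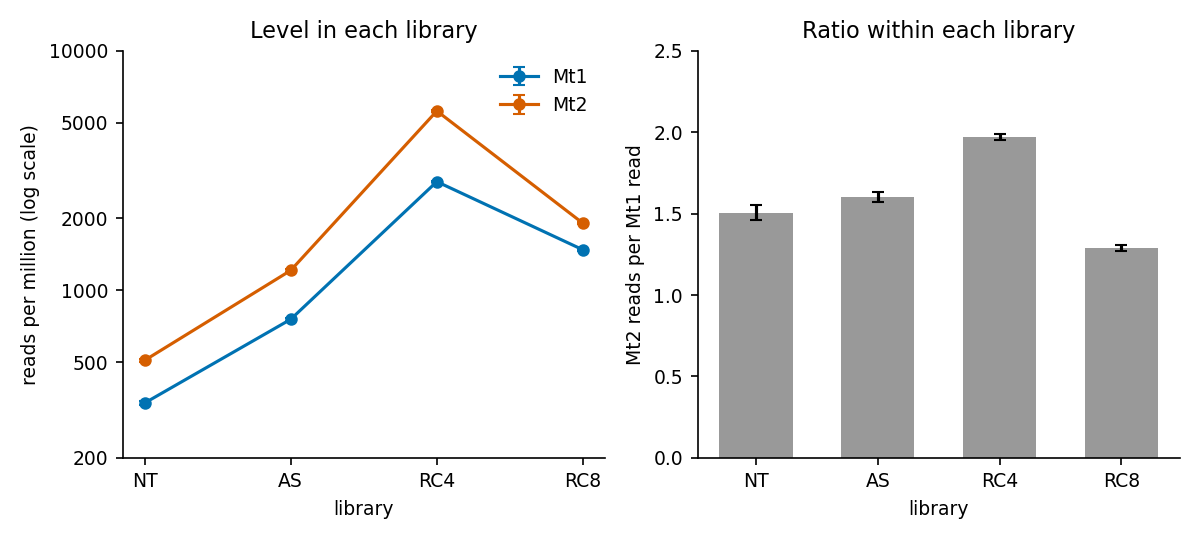
Left, RPM (log axis) of Mt1 and Mt2 in the 4 libraries, with 95% exact Poisson intervals that are about as small as the points; both genes were lowest in NT and highest in RC4, at 2842 for Mt1 and 5607 for Mt2. Right, Mt2 reads per Mt1 read in each library with 95% exact intervals; the bar is tallest in RC4 (1.97) and shortest in RC8 (1.29).

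The first comparison asked what 1 h of arsenite changed. Mt1 was 2.24-fold higher in AS than in NT (95% exact interval of the ratio of counts 2.18 to 2.30) and Mt2 was 2.37-fold higher (2.32 to 2.43). A fold of at least 2 upwards was reached by 0.622% of the 10452 genes, and of at least 2 downwards by 3.22%. In 127 of these genes a count column of a library was listed at 0, which lowers that library's sum. Among the 10325 genes with reads in every column, 0.329% were 2-fold up, and Mt2 and Mt1 ranked 19 and 21 by rise. Over all genes of the table their ranks were 40 and 44. Genes further up that order included Egr1, Ppp1r15a, Gadd45g, Zfp36, Ddit3 and Dnajb1, early response and stress genes named here after their values were seen.

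After 4 h of recovery both genes were far above NT. Mt1 was 8.38-fold higher in RC4 (8.18 to 8.58, log2 change 3.07) and Mt2 was 11-fold higher (10.8 to 11.2, log2 change 3.45). A rise of at least 2-fold was reached by 3.69% of 10081 genes and a fall of that size by 13.4%. Among the 9952 genes with reads in every count column, 3.43% were 2-fold up, and Mt2 and Mt1 ranked 6 and 10 by fold. Over all genes of the table Mt2 ranked 6 and Mt1 ranked 11. The genes above Mt1 were Hspa1b, Hmox1, Slc7a11, Havcr2, Sirt6, Dnajb1, Srxn1, Acot2 and Zfand2a beside Mt2 itself, and all 9 of them had fewer reads in NT than either metallothionein. By gain in RPM, Mt2 was first of all 10081 genes with 5095 and Mt1 was eighth with 2503. The libraries differed in the median gene, so with scaling by median-of-ratios size factors the folds were 10.3 for Mt1 and 13.5 for Mt2, while 6.38% of genes were 2-fold up and 6.38% down.

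After 8 h of recovery Mt1 was 4.36-fold above NT (4.25 to 4.47, log2 change 2.12) and Mt2 was 3.73-fold above it (3.66 to 3.81, log2 change 1.90). Of 10441 genes, 2.97% were at least 2-fold higher in RC8 than in NT and 3.53% at least 2-fold lower. Among the 10324 genes with reads in every count column, 2.55% were 2-fold up, and Mt1 and Mt2 ranked 8 and 19 by fold. Over all genes of the table Mt1 ranked 12 and Mt2 ranked 26. Either way the order of the pair by fold was turned round against RC4. All 3 comparisons use the same NT library.

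**Figure D2:**
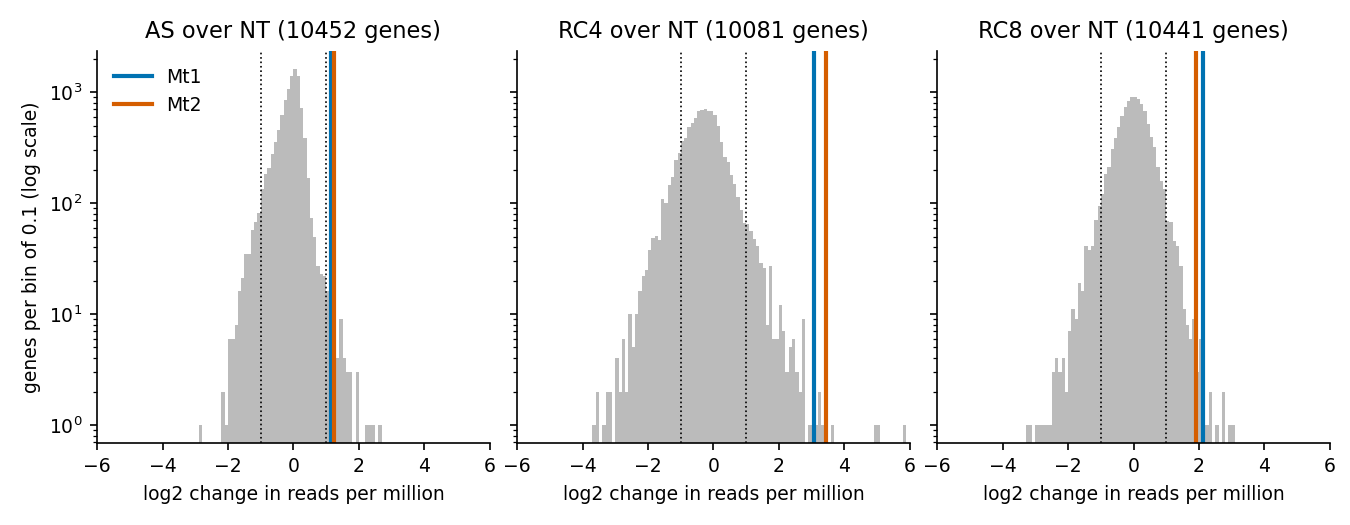
Numbers of genes (log axis) by log2 change in RPM of AS, RC4 and RC8 over NT, in bins of 0.1, with dotted lines at 2-fold and coloured lines at Mt1 and Mt2. Both lines lie right of the upper 2-fold line in all 3 panels, at 1.16 and 1.25 (AS), 3.07 and 3.45 (RC4), and 2.12 and 1.90 (RC8).

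The steps of recovery were also set against each other. From AS to RC4, Mt1 was 3.75-fold higher (3.69 to 3.82) and Mt2 4.63-fold higher (4.57 to 4.69), in a comparison where 5.89% of 9940 genes were at least 2-fold up. From RC4 to RC8, Mt2 was 2.94-fold lower (2.91 to 2.97) and Mt1 was 1.93-fold lower (1.90 to 1.95). In that comparison 2.13% of 9972 genes were at least 2-fold down. Mt2 fell by 3701 RPM, more than any other of these genes. Mt1 stood short of 2-fold in RPM, but with median-of-ratios size factors it was 2.31-fold lower and with TMM factors 2.29-fold lower. With the former 3.96% of genes were 2-fold down from RC4 to RC8, and 9.27% 2-fold up from AS to RC4. In RC8 both genes were still above AS, Mt1 by 1.95-fold (1.91 to 1.99) and Mt2 by 1.57-fold (1.55 to 1.60).

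Of the 9875 genes listed in all 3 tables, 9 were at least 2-fold above NT in AS, RC4 and RC8 alike, which is 0.0911%. Both metallothioneins were among them. The other 7 were Hmox1, the heat shock gene Hspa1b, the growth arrest gene Gadd45g, the histone gene Hist1h2bc, the deacetylase gene Sirt6, Card6 and Gm9115. RC4 was the highest of the 3 in 8 of the 9, and Card6 was the exception. Card6 and Gm9115 had a count column listed at 0 in at least 1 library, and without such genes 7 remained. Hspa1b has a near-identical copy, Hspa1a, which was in none of the tables, so reads of the pair may have been assigned to either.

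The pair did not keep a fixed proportion. Within a library, where scaling plays no part, Mt2 had 1.51 reads per Mt1 read in NT (95% exact interval 1.46 to 1.55) and 1.60 in AS (1.57 to 1.63). The ratio was 1.97 in RC4 (1.95 to 1.99) and 1.29 in RC8 (1.27 to 1.31). Mt2 therefore gained more than Mt1 up to RC4 and lost more after it. The difference of the log2 changes, Mt2 minus Mt1, over NT was 0.09 (0.04 to 0.14) for AS, 0.39 (0.34 to 0.43) for RC4 and -0.22 (-0.27 to -0.18) for RC8. From RC4 to RC8 it was -0.61 (-0.64 to -0.59). Whether such differences exceed the spread between cultures was not tested, since each condition was 1 library.

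The 3' ends from which QuantSeq reads come were compared between the genes. The longest identical stretch of their last 250 nt was 17 nt. In a search of mm9, each 250-nt end matched its own gene and no other place over at least 50 nt at 90% identity or more. Between the 2 genes the longest alignment was 94 nt at 83.0% identity. The longest alignments elsewhere were 248 nt at 81.0% for Mt2, on chromosome 4, and 223 nt at 80.3% for Mt1, on chromosome 14, and 243 nt on chromosome 12 were 88.5% identical to Mt2.

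Polyadenylation sites (PASs) were listed with the share of the gene's reads that the authors' model assigned to each. Both genes had 2 PASs. For Mt1 the proximal PAS lay at chr8:96703780 inside coding exon 2, 8 nt before the end of that exon, and the distal PAS lay at chr8:96704227, 2 nt past the annotated end of the gene. For Mt2 both lay in or just past the last exon, the proximal PAS at chr8:96697351, 24 nt past the stop codon, and the distal PAS at chr8:96697506, 39 nt past the annotated end. The sequences (mm9) show where a poly(A) signal was found, with AATAAA in capitals, and for the PAS in Mt1 exon 2 the last base before cleavage in capitals. Each run ends at its PAS except that of the proximal Mt1 PAS, which goes on for 20 nt, and that of the distal Mt2 PAS, which is placed around the signal.
Mt1 proximal, chr8:96703741-96703800: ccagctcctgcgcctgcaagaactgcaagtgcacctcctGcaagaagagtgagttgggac
Mt1 distal, chr8:96704198-96704227: cgtgaatAATAAAagcctgtttgagtctaa
Mt2 proximal, chr8:96697322-96697351: gcctgaaggggggcggaggggtccccacat
Mt2 distal, chr8:96697436-96697465: ctgacAATAAAagccgttgacttgattaat
The distal Mt1 PAS had AATAAA 23 nt upstream, the usual distance. The nearest AATAAA was 66 nt upstream of the distal Mt2 PAS, and neither proximal PAS had AATAAA or ATTAAA within 40 nt. Among all 18102 PASs of 3'-most exons that were listed, 53.0% had one of these signals within 40 nt, and of 412 PASs of internal exons 11.2% did.

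The distal PAS took most reads of both genes in every library. For Mt1 its share in NT was 82.8% (95% Wilson interval 81.9 to 83.6), that in AS 83.5% (82.9 to 84.1), that in RC4 85.3% (85.0 to 85.6) and that in RC8 81.8% (81.4 to 82.2). The AS share differed from NT by 0.7 percentage points (-0.30 to 1.72), the RC4 share by 2.5 (1.63 to 3.40) and the RC8 share by -1 (-1.93 to -0.05). Only the difference in AS lay within counting error of 0. The RC8 bound of -0.05 was smaller in size than the last digit of the listed shares. These intervals, and those of Mt2, leave out error in the assignment of reads to PASs. The 2 sites lay only 234 nt apart in the spliced transcript of Mt1 and 155 nt apart in Mt2. For Mt2 the distal share in NT was 84.8% (84.1 to 85.4), that in AS 86.1% (85.7 to 86.5), that in RC4 85.4% (85.2 to 85.6) and that in RC8 85.5% (85.2 to 85.8). The AS share differed from NT by 1.3 points (0.53 to 2.08), the RC4 share by 0.6 (-0.07 to 1.29) and the RC8 share by 0.7 (-0.02 to 1.44). The differences in RC4 and RC8 lay within counting error of 0.

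These shifts were small beside those of other genes with more than 1 PAS. Counting error alone gives larger shifts in genes with fewer reads or more PASs, and the genes compared were not matched for either. A PAS share moved by at least 10 points in 15.3% of 5287 such genes (AS), 29.1% of 5343 (RC4) and 27% of 5357 (RC8), and in neither metallothionein. The median of the largest shift per gene was 4.2, 6.2 and 6 points. Genes with a smaller shift than Mt1 made up 7.64% (AS), 19.6% (RC4) and 6.91% (RC8), and those with a smaller shift than Mt2 15.5%, 4.08% and 4.78%. The relative expression difference (RED) is the log2 ratio of distal to proximal reads minus that ratio in NT, and was computed here from the shares. The paper calls it REDi where the proximal PAS lies upstream of the last exon, as in Mt1. It is REDu where both lie in the 3'-most exon, as in Mt2, so the genes differ in kind here. RED was 0.07, 0.27 and -0.10 for Mt1, and 0.15, 0.07 and 0.08 for Mt2, in the same order of libraries. The level at each PAS was computed as its share of the gene's reads, so with such small shifts it had to follow its gene. In RC4 over NT the proximal PAS of Mt1 was 7.16-fold and the distal PAS 8.63-fold higher, against 10.5-fold and 11-fold for those of Mt2.

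**Figure D3:**
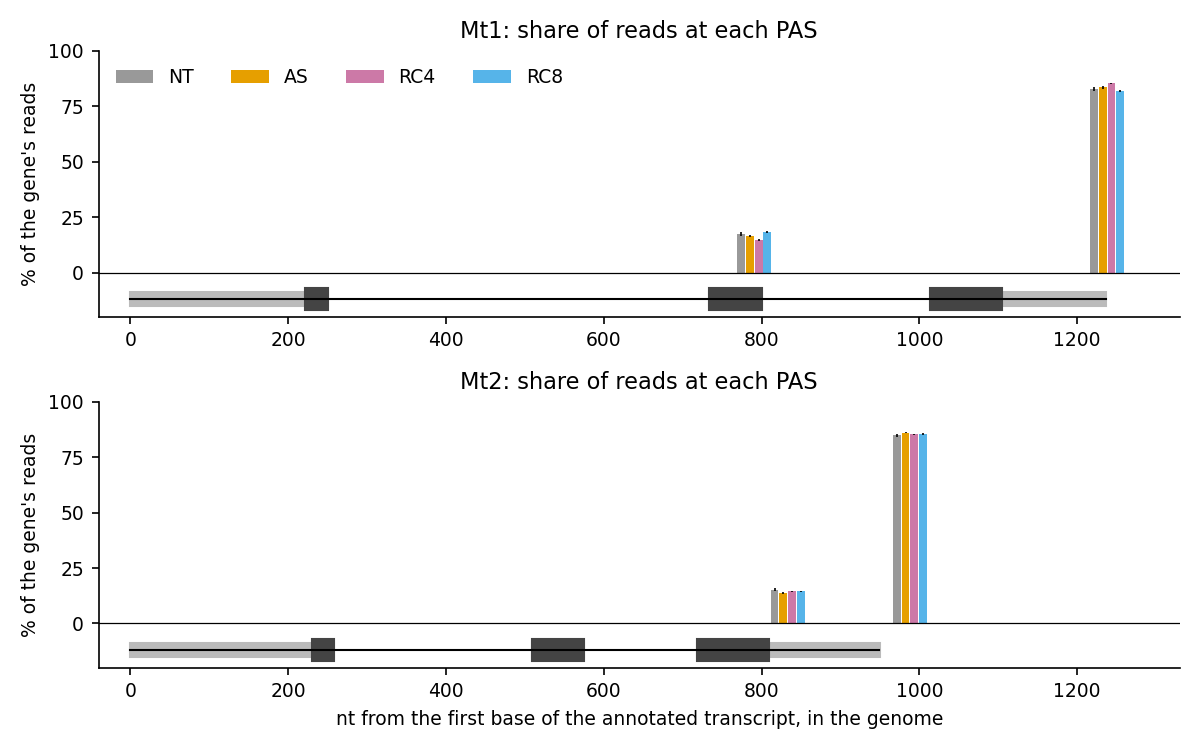
Share of each gene's reads (%) at its 2 PASs in the 4 libraries, with 95% Wilson intervals, above a map of the gene in nt from the first base of its annotated transcript (dark boxes, coding; light boxes, untranslated; line, introns). The 4 bars at a site are set side by side around its position. At the distal PAS all 8 bars lie between 81.8% and 86.1%.

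The other genes of metal handling were listed by role, and their list was drawn up with earlier results of these data known. Of 24 zinc transporter genes 16 were in the tables. In AS and in RC8, 0 of them were 2-fold higher or lower, and in RC4 1 was higher and 1 lower, where 3.69% of all genes were higher and 13.4% lower. For AS these shares of all genes were 0.622% and 3.22%, and for RC8 2.97% and 3.53%, so counts of 0 or 1 in 16 do not set the list apart. Their median log2 changes of -0.16 (AS), -0.40 (RC4) and 0.05 (RC8) stood beside -0.04, -0.30 and 0.01 for all genes. The one that was higher was Slc30a1, whose product ZnT1 carries zinc out of the cell. Its RPM were 36.3 (NT), 59.4 (AS), 123 (RC4) and 24.2 (RC8). It was thus highest in RC4 as were Mt1 and Mt2, but it was below NT in RC8, at 0.667-fold (0.597 to 0.743). Slc39a13, a transporter that releases zinc from vesicles, was at 0.493-fold in RC4. The transporter genes with most NT reads gave folds in AS, RC4 and RC8 of 1.1, 0.715 and 1.01 (Slc39a1, zinc uptake), 0.952, 0.938 and 0.749 (Slc39a7, release from the endoplasmic reticulum) and 0.620, 1.07 and 0.509 (Slc30a4, loading of vesicles).

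Known targets of MTF1 besides the metallothioneins came to 6 in the tables of 7 listed. None was past 2-fold in AS, where 0.622% of all genes were higher and 3.22% lower, or in RC8, where 2.97% and 3.53% were. Counts of 0 in 6 therefore do not set the list apart in AS or RC8. In RC4, 3 were 2-fold higher and 0 lower, beside 3.69% and 13.4% of all genes. The list's median log2 change was -0.12 (AS), 0.98 (RC4) and -0.06 (RC8). Slc30a1 and Slc39a10 are also in the zinc list, and Gclc is also in the list of glutathione genes below. The 3 were Slc30a1 at 3.39-fold (3.13 to 3.67), Gclc, the catalytic subunit of the enzyme that makes the first intermediate of glutathione, at 2.93-fold (2.72 to 3.16), and Ndrg1, a gene also induced by hypoxia, at 2.78-fold (2.59 to 2.98). In RC8 the folds of the 3 over NT were 0.667, 0.895 and 1.02, where Mt1 and Mt2 were at 4.36 and 3.73. Csrp1, a LIM domain protein, had folds of 1.00, 1.39 and 1.12. Of the remaining members, Slc39a10, a zinc importer, had folds of 0.739, 0.577 and 1.94, and Selenow, a selenoprotein, had 0.914, 0.864 and 0.601. The list was not split by whether MTF1 raises or lowers a target.

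Of 8 listed regulators known to act on metallothionein promoters 7 were in the tables, and their median log2 changes were -0.03 (AS), 0.09 (RC4) and -0.10 (RC8). Mtf1 itself had 674 reads in NT and 984 in RC4, and its fold over NT was 1.12 (1.01 to 1.25) for AS, 1.43 (1.30 to 1.58) for RC4 and 1.40 (1.27 to 1.55) for RC8. Past 2-fold were Nr3c1, the glucocorticoid receptor, at 0.416-fold in AS, and Hsf1, the heat shock factor, at 0.464-fold in RC4. Of all genes, 3.22% were 2-fold lower in AS and 13.4% in RC4, where the median log2 change was -0.30. Ep300 had folds of 0.542, 0.675 and 0.964 in AS, RC4 and RC8. The other named members stayed nearer to NT, with folds in AS, RC4 and RC8 of 0.978, 1.2 and 0.933 for Usf2, 0.846, 1.29 and 1.03 for Sp1, and 1.07, 1.02 and 0.837 for Nfe2l2, the NRF2 gene. These are levels of transcripts, and activity of the factors was not measured.

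Genes of glutathione and arsenic handling were in the tables in 14 of 17 cases. They had 0 members past 2-fold in AS, beside 0.622% of all genes higher and 3.22% lower. A count of 0 in 14 does not set the list apart there. In RC4 3 were higher (Slc7a11, Txnrd1 and Gclc) and in RC8 4 (Slc7a11, Gsta4, Gsto1 and Txnrd1), beside 3.69% and 2.97% of all genes. In RC4 and RC8 0 were 2-fold lower, beside 13.4% and 3.53% of all genes. The median log2 changes of the list were -0.07, 0.07 and 0.37. Slc7a11, which imports cystine for glutathione, was at 6.33 (NT), 5.84 (AS), 199 (RC4) and 49.9 (RC8) RPM. Unlike Mt1 and Mt2 it was not above NT in AS. Txnrd1, a thioredoxin reductase, was at 4.19-fold in RC4 and 2.02-fold in RC8, while Gsto1, a glutathione transferase that reduces arsenic species, was at 1.36-fold and 2.17-fold. Gclm, the regulatory partner of Gclc and the member with most NT reads, stayed at 1.12, 0.981 and 1.04. Of 15 copper handling genes 13 were in the tables. In RC4 1 was higher (Atp7a, a copper exporter, 2.1-fold) and 1 lower (Steap2, a metalloreductase, 0.293-fold), beside 3.69% and 13.4% of all genes. In RC8 0 were higher and 1 was lower (Steap2, 0.451-fold), beside 2.97% and 3.53% of all genes. In AS 0 were past 2-fold, beside 0.622% of all genes higher and 3.22% lower. The median log2 changes of the copper list were 0.00, 0.00 and 0.10. Sod1, the copper and zinc superoxide dismutase, had folds of 1.07, 1.18 and 0.951, and Commd1, which takes part in copper export, 0.983, 0.749 and 0.628.

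**Figure D4:**
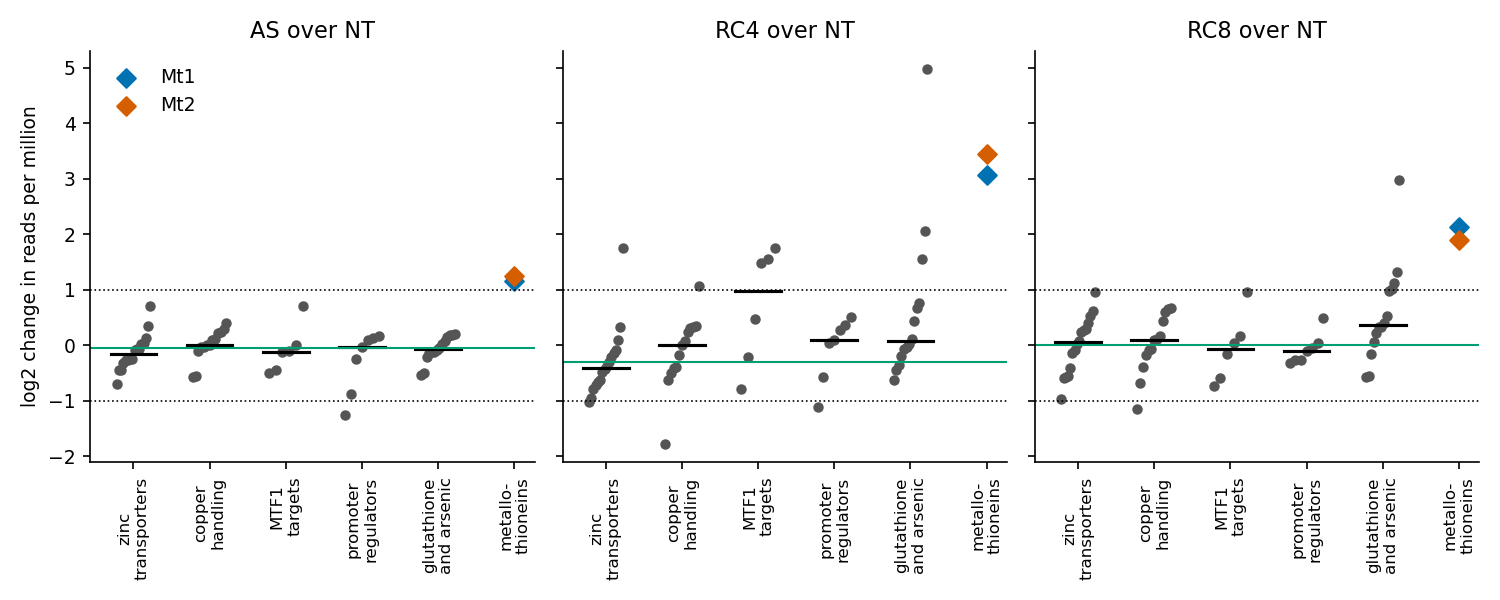
Log2 change in RPM over NT of each gene in 5 lists (grey points; black bar, list median) and of Mt1 and Mt2 (diamonds), with the median of all genes (green line) and 2-fold (dotted lines). In RC4 and RC8 only Slc7a11, at 31.4-fold and 7.87-fold, stands above both metallothioneins, and in AS none of the listed genes does.

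The place of the pair on the chromosome was also examined. Mt3 and Mt4, which lie beside Mt2 on the same strand, were in none of the 3 tables. Of the 10 other genes listed around the pair 6 were in the tables, from Gnao1 on one side to Herpud1 on the other, and 0 of them were past 2-fold in any comparison with NT. With shares of 0.622% to 13.4% of all genes past 2-fold in a direction, 0 of 6 does not set them apart. Nup93, the nearest of these on the Mt1 side, had folds of 0.929, 0.802 and 0.979 in AS, RC4 and RC8. Ogfod1, the nearest on the Mt2 side, had 0.911, 0.663 and 0.930.

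**Figure D5:**
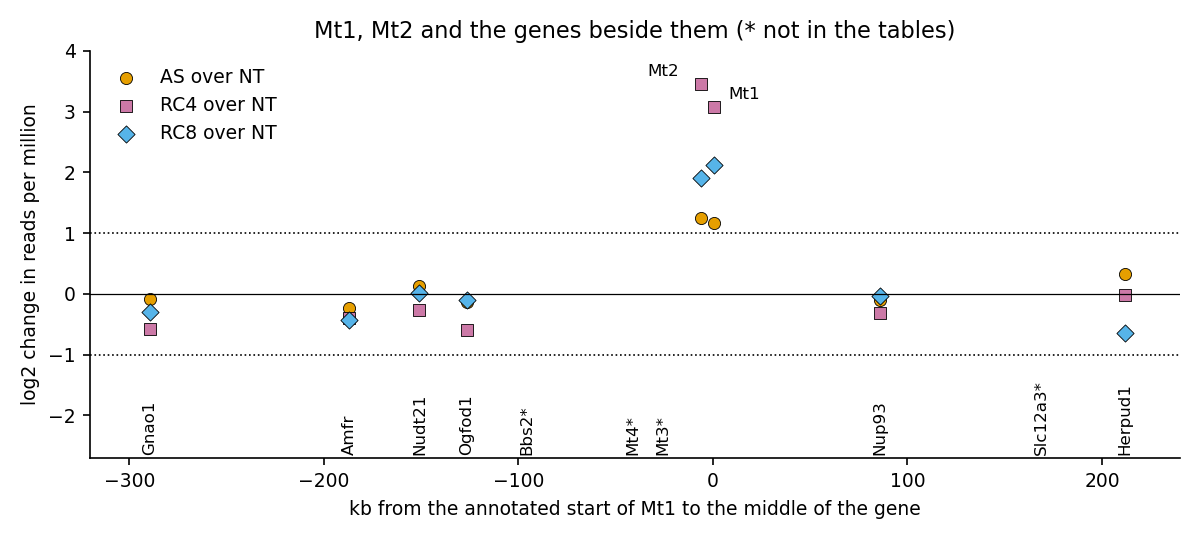
Log2 change in RPM over NT of Mt1, Mt2 and the genes beside them, by distance in kb from the annotated start of Mt1 to the middle of each gene; dotted lines mark 2-fold and an asterisk a gene that was in none of the tables. The 6 other genes lie between the dotted lines in AS, RC4 and RC8.

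The genes most like Mt1 and Mt2 over the 3 changes from NT were found by Euclidean distance of the log2 changes, among 7814 genes with at least 200 reads in every library. The nearest gene to each was the other, at a distance of 0.46. Zfand2a, an arsenite-inducible gene whose product acts with the proteasome, was next for both, at 0.67 from Mt1 and 0.60 from Mt2. Its folds over NT were 1.92 (AS), 8.76 (RC4) and 2.81 (RC8). The rest of the nearest 5 were Dusp5, Sqstm1 and Procr for both genes. Dusp5, a phosphatase of ERK kinases, had folds of 1.5, 5.65 and 4.34. Sqstm1, the autophagy receptor p62, had 1.19, 7.52 and 3.65, and Procr, the protein C receptor, had 1.09, 8.09 and 4.22. None of these 4 reached 2-fold in AS. As all 3 changes use the same NT library, a low or high NT value moves all of them, and nothing is read from likeness beyond the values.

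Genes with short transcripts only were described as well. Of 442 genes other than the pair with no annotated transcript over 600 nt, 12 (2.71%) were at least 2-fold higher in RC4 than in NT, beside 3.69% of all genes, and their median log2 change was -0.10. In AS 5 of 446 (1.12%, beside 0.622%) and in RC8 8 of 435 (1.84%, beside 2.97%) were 2-fold higher, with medians of 0.04 and -0.14. Mt1 also has an annotated transcript of 631 nt and so lies just outside this class. A transcript length was found for 89.1% to 89.2% of the genes. The part of transcript length in the changes of Mt1 and Mt2 was not tested.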

How the data were processed

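Libraries of 4 conditions (QuantSeq FWD) were analysed, 1 per condition. The 4 QuantSeq REV libraries were not analysed here. The authors mapped reads with STAR (2.5.2a in the submitters' processing notes), assigned them to PASs with MAAPER, and deposited, for each treated library with NT, counts of reads per gene in 2 columns and the fraction of a gene's reads at each PAS. The 2 count columns of a library were summed. What the 2 columns stand for (lanes, runs or parts of a library) is not given in the sources used here, and in some genes 1 of them was listed at 0. Deposited test columns (likelihood ratio and Fisher P, RED, RLD) were not used, and 0 sample columns were left unassigned. RPM used the sum over genes of the table (22441452 to 22996421 reads). Each listed gene had at least 50 reads in each library. Folds have exact conditional 95% intervals, and shares have Wilson intervals with the reads of the gene as n. They cover counting error only, since without molecular identifiers PCR copies of 1 molecule can be counted as several reads. A gene was called past 2-fold by its fold alone, with no test.

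The members, gene lists and motifs were chosen with earlier results of these data known. Named were the pair, zinc, MTF1 and regulator genes past 2-fold, the 3 members of each list with most NT reads, and the 5 nearest genes by pattern. Other genes were named after their values were seen. Alternatives covered scaling, gene filters, single count columns, fold limit and PAS minimum. Fold and interval code was tested on simulated data. Python 3.11.15, numpy 2.4.6, pandas 2.3.3, scipy 1.17.1, R 4.3.3 and edgeR 4.0.16 (TMM factors only) were used. Sequences came from mm9 and from RefSeq promoters, which matched both genes.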

Additional observations from a re-analysis of the deposited data

How the results depend on the processing

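No paired analysis was possible because each condition was 1 library and the labels give no replicate numbers. No fold of Mt1 or Mt2 turned its direction under any of the alternatives run. Values past the counting interval of the reported one were as follows. With median-of-ratios size factors, Mt1 was 2.30-fold in AS, 10.3-fold in RC4 over NT, 4.37-fold in RC4 over AS and 0.433-fold in RC8 over RC4, and Mt2 was 2.44, 13.5, 5.39 and 0.283. With TMM factors, Mt1 gave 2.31, 10.2, 4.35 and 0.437 and Mt2 2.45, 13.4, 5.36 and 0.286. With totals of all mapped reads in place of the sums over genes, RC8 over RC4 was 0.537 for Mt1 and 0.352 for Mt2. The first count column alone gave Mt1 2.17 in AS and 8.15 in RC4 over NT, and the second 2.31 and 8.61. In RC8 over NT both folds stayed within their intervals under every alternative, as did the Mt2 to Mt1 ratios. The PAS shares were the same under their alternatives, which could hardly move them. A PAS minimum of 10% removed no PAS of either gene, as the lowest share was 13.9%. The NT shares listed with RC4 and RC8 came from the same library.

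Counts of genes moved more. In AS over NT 65 genes were 2-fold up, but 42 among genes in all 3 tables, 38 by the first column, 36 by the second and, in an alternative chosen after seeing the data, 34 among genes with reads in both columns. In RC4 over NT, 372 were up and 1347 down, against 643 and 643 with median-of-ratios size factors and 628 and 667 with TMM factors. In RC4 over AS 585 were up, against 921 and 913, and in RC8 over RC4 212 were down, against 395 and 382. At a fold limit of 1.5, the 52 metal genes had 1 up and 3 down in AS (0 and 1 at 2-fold), beside 1.88% and 11.4% of all genes. In RC4 they had 8 up and 9 down (6 and 3), beside 8.04% and 31.8%. Higher members thus no longer outnumbered lower ones, in a comparison where falls were commoner than rises among all genes. In RC8 they had 10 up and 5 down (4 and 1), beside 11.3% and 11.9%. The 5 nearest genes were the same 5 for both members after median-of-ratios scaling, but this could not have come out otherwise. A scale factor shifts the log2 changes of all genes alike and leaves their distances unchanged. With at least 7646 reads of each member in every library, depth limited little here, and the spread between cultures is unknown.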
